A study of Mus musculus with 12 samples.

Results

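The 9 genes described here, Tubb2a, Tubb2b, Tubb5, Tubb6, Tuba1a, Tuba1b, Tuba1c, Tuba4a and Tuba8, are mouse genes of beta and alpha tubulin. They were chosen by name, as every probe whose gene name in the scanner files is one of these, which gave 13 of the 55681 distinct probes on the array. All 9 genes were measurable in liver and are among the 22122 genes tested. The names were proposed with the measured differences of these same arrays in view, so the differences of the 9 genes are given as descriptions, with standard errors and without a p.

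RNA came from whole livers of BALB/c mice, either wild type or knocked out for interleukin-18, a cytokine released through the inflammasome. Animals were 6 or 12 weeks old and received no treatment. Each of the 4 groups (wild type at 6 weeks, knockout at 6 weeks, wild type at 12 weeks and knockout at 12 weeks) held 3 arrays, which the labels call biological replicates. The labels name neither the design of the knockout allele nor the part of Il18 that it removes.

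Microtubules are hollow polymers of alpha and beta tubulin dimers, nucleated by a ring of gamma tubulin, and they form the mitotic spindle, the tracks of vesicle transport and the core of cilia. Mammals carry a family of alpha and beta genes, called isotypes, whose products are closely alike except in their tails, and cells mix them in tissue-specific proportions. In hepatocytes microtubules carry secretory vesicles and receptors to the sinusoidal and canalicular membranes. Cells also destabilise tubulin messenger RNA when free dimers accumulate, a feedback in which Ttc5 recognises the nascent protein.

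A level below is the log2 processed signal of a probe minus the 75th percentile of its array, so it can be compared between arrays for a probe and not between probes. The Il18 probe had levels of 2.15 to 2.49 in the wild type arrays and -0.37 to 0.04 in the knockout arrays, with no overlap. The arrays lay on 2 slides. All 3 of the 6-week wild type were on slide 1, together with a single 12-week wild type array (replicate 1), and the other 8 arrays were on slide 2, so at 6 weeks the slide and the genotype cannot be told apart without the single bridging array. The share of spots well above background ran from 50.1% to 57.7%. In RNA from whole liver, fewer cells of a type and less RNA per cell cannot be told apart.

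The probes behind the results are 60 bases long, and those of 5 members are printed here because each value is read through them. The Tuba4a probe, in coding sequence, is given whole, those of Tuba1c by a stretch of 30 shared positions and the others by their first 30 bases, in lower case and 5′ to 3′; capitals mark the 1 base at which the overlapping Tuba1c probes differ. Positions were given by the scanner files on mm9.
Tubb2a, chr13:34166116-34166145, minus strand (the file places 30 of the 60 bases): cttagtgaacttctgttgtcctccagcatt
Tuba4a, chr1:75212307-75212366, minus strand, whole: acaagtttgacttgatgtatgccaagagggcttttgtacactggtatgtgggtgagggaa
Tuba8, chr6:121176046-121176105, plus strand: agaagtggggactgattcgtttgaagaaga
Tubb5, chr17:35971872-35971931, minus strand: cctaaggcagagagccctgcatcagctcag
Tuba1c, first probe, bases shared with the second: aaactgtcaataaaggtgtttccGttgtaa
Tuba1c, second probe, the same stretch: aaactgtcaataaaggtgtttccAttgtaa

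The longest run of identical bases between probes of different genes was 10 bases, with a median of 6 over 74 probe pairs, so the probes are not near copies of each other. Probes were compared with each other and not with the transcripts of other tubulins, so binding to another tubulin was not tested. The Tuba1c probes overlap by 49 bases and differ by G54A, counted from the 5′ end of the first probe. Tubb2a and Tubb2b are neighbours on chromosome 13, their probes 52.9 kb apart. Tuba1b, Tuba1a and Tuba1c lie together on chromosome 15, with 17.9 kb between the probes of Tuba1b and Tuba1a and 88.2 kb between those of Tuba1a and Tuba1c. The other members lie singly.

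RefSeq (GRCm38.p6) gave the 250 bases before the start of 7 of the 9 genes; Tubb2b and Tubb6 had no entry. The region of Tubb2a is shown because its levels spanned the widest range, that of Tuba1c as another member higher in the 6-week knockout, and that of Tuba8 as the member lower in the knockout at both ages. Capitals mark matches to 5 motifs searched on both strands: TATAAA (the core promoter box), CCAAT (the site of NF-Y), GGGCGG (the Sp1 box), CACGTG (the E-box) and TGACGTCA (the cAMP response element).
Tubb2a, chr13:34078009-34078258, minus strand: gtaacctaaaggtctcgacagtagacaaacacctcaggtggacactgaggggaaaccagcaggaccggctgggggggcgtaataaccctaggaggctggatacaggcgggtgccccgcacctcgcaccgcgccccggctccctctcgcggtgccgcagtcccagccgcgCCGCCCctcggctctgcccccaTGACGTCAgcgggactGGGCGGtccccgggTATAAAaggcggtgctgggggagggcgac
Tuba1c, chr15:99029641-99029890, plus strand: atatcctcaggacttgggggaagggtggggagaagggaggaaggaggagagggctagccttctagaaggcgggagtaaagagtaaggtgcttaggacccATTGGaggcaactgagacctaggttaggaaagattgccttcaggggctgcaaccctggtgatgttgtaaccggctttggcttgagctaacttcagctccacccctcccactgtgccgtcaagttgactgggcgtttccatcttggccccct
Tuba8, chr6:121210484-121210733, plus strand: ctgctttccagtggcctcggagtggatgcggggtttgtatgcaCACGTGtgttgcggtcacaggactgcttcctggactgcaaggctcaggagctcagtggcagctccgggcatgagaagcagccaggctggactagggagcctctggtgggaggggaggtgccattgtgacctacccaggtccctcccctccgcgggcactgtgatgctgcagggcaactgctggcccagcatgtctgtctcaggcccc

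The Tubb2a region held TATAAA at 29 bases before the start, TGACGTCA at 59 bases, and GGGCGG or its complement at 43 and 81 bases. Of 32851 RefSeq regions of this length, 12.4% hold TATAAA, 1.55% hold TGACGTCA and 32.7% hold GGGCGG. The Tuba1c region held the CCAAT motif once, 151 bases before the start, as 33.8% of regions do. CACGTG was found in the Tuba8 region at 207 bases and in that of Tubb5 at 75 bases, against 6.02% of all regions. These matches describe letters in a window and not bound sites.

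Among the beta tubulins, Tubb2a, a class II isotype best known from neurons, differed most between the groups. Its levels were 3.14, 3.33 and 3.27 in the 6-week wild type, 7.39, 6.83 and 6.61 in the 6-week knockout, 5.72, 6.25 and 5.31 in the 12-week wild type, and 5.26, 4.28 and 4.45 in the 12-week knockout. No group overlapped another: the 6-week wild type was lowest, followed by the 12-week knockout, the 12-week wild type and the 6-week knockout.

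At 6 weeks the Tubb2a level was 3.70 ± 0.30 (log2, SE, n = 3 against 3) higher in the knockout, a 13.0-fold difference. At 12 weeks it was lower in the knockout by 1.10 ± 0.30 on the log2 scale, or 2.14-fold. With age it was 2.51 ± 0.30 higher in the wild type (5.72-fold) and, in the knockout, the 12-week level minus the 6-week level was -2.28 ± 0.30, a 4.86-fold lower signal. The genotype difference at 12 weeks minus that at 6 weeks was -4.80 ± 0.42. Within slide 1 the single 12-week wild type array stood 2.47 above the mean of the 6-week wild type, close to the 2.51 of all arrays. Within slide 2 the 6-week knockout mean stood 1.16 above the 12-week wild type mean and the 12-week knockout mean stood at -1.12 against it. With the slide as a fixed block the 6-week difference was 3.63 ± 0.57, in a fit that rests on the bridging array, at 5.72. The 12-week wild type arrays of slide 2, against which it is set, stood at 6.25 and 5.31.

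**Figure D1:**
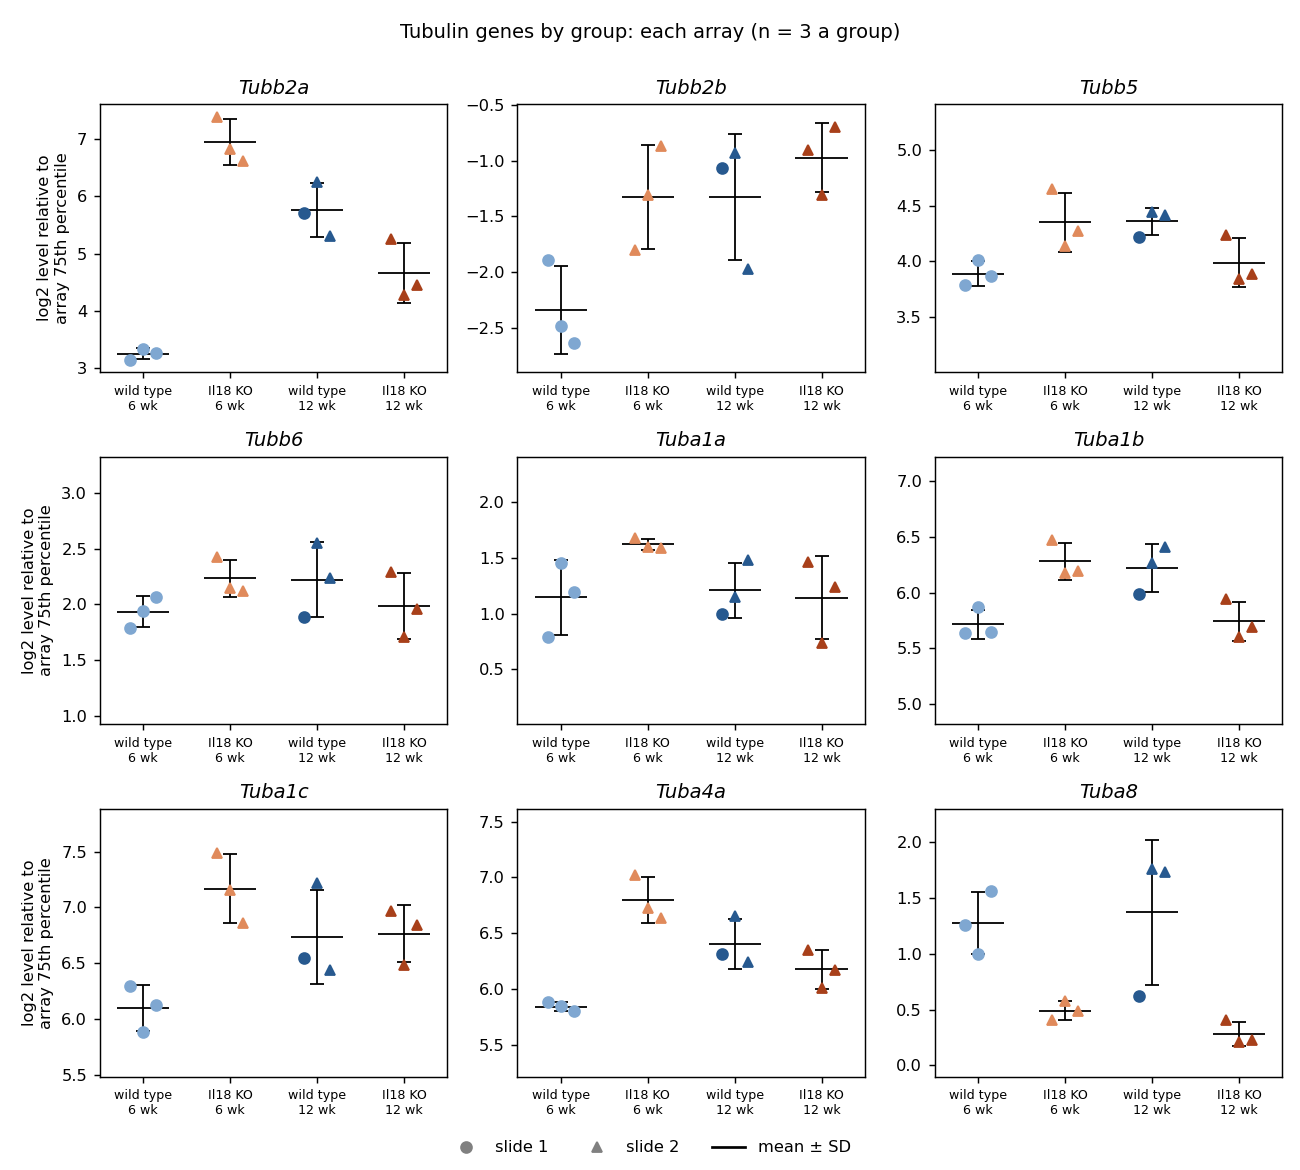
Level of each of the 9 genes on every array (log2 processed signal relative to the array's 75th percentile), by group; circles are arrays of slide 1, triangles arrays of slide 2, and bars are the mean ± SD of 3 arrays. Tubb2a goes from 3.25 ± 0.10 in the 6-week wild type to 6.95 ± 0.40 in the 6-week knockout, while Tuba8 is lower in both knockout groups than in the wild type of the same age.

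Tubb2b, the neighbour of Tubb2a and known for its part in migrating neurons, had low levels throughout. They were -1.90, -2.48 and -2.64 in the 6-week wild type and -1.80, -1.31 and -0.87 in the 6-week knockout. At 12 weeks they were -1.07, -0.93 and -1.97 in the wild type and -0.91, -1.31 and -0.70 in the knockout. The 6-week wild type was lowest and did not overlap the 6-week knockout (1.01 ± 0.32 higher), while 1 array of the 12-week wild type fell in its range and the other 3 groups overlapped each other. Unlike Tubb2a, its 12-week knockout had the highest mean, 0.35 ± 0.32 above the 12-week wild type. A second Tubb2b probe was well above background on 2 of the 12 arrays, both of the 12-week wild type, and was not tested.

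Tubb5, the broadly expressed class I beta tubulin, moved over a narrower range. Its levels were 3.79, 4.01 and 3.87 in the 6-week wild type, 4.64, 4.13 and 4.27 in the 6-week knockout, 4.22, 4.44 and 4.42 in the 12-week wild type, and 4.24, 3.84 and 3.89 in the 12-week knockout. The 6-week knockout was above the 6-week wild type on every array by a mean of 0.46 ± 0.15 (1.38-fold). The 12-week difference had the other sign, -0.37 ± 0.15, with 1 knockout array inside the wild type range.

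Tubb6, the class V beta tubulin, had the smallest differences of the beta genes. Its levels ran from 1.79 to 2.07 in the 6-week wild type, 2.13 to 2.43 in the 6-week knockout, 1.88 to 2.55 in the 12-week wild type and 1.71 to 2.29 in the 12-week knockout. Only the 6-week groups did not overlap (0.30 ± 0.19), and with the slide as a fixed block that difference turned to -0.21.

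Of the alpha tubulins, Tuba4a followed Tubb2a most closely. It encodes an alpha tubulin that, unlike most, lacks the genetically encoded C-terminal tyrosine. Its levels were 5.88, 5.84 and 5.80 in the 6-week wild type, 7.02, 6.73 and 6.64 in the 6-week knockout, 6.31, 6.66 and 6.24 in the 12-week wild type, and 6.35, 6.00 and 6.17 in the 12-week knockout. The 6-week wild type was below every other array and the 6-week knockout overlapped the 12-week wild type by 1 array.

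Tuba4a was 0.96 ± 0.14 higher in the 6-week knockout (1.94-fold) and 0.56 ± 0.14 higher in the 12-week than in the 6-week wild type. In the knockout, 12 weeks minus 6 weeks gave -0.62 ± 0.14. The 12-week genotype difference was -0.23 ± 0.14 with overlapping groups. Over the 12 arrays its level correlated with that of Tubb2a at r = 0.98; the points share 4 group means, so this describes the group pattern.

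Tuba1a, Tuba1b and Tuba1c encode nearly identical proteins; Tuba1a is prominent in developing neurons and the other two are widely expressed. Tuba1c levels were 6.29, 5.88 and 6.13 in the 6-week wild type, 7.49, 7.16 and 6.86 in the 6-week knockout, 6.55, 7.22 and 6.43 in the 12-week wild type, and 6.97, 6.48 and 6.84 in the 12-week knockout. The 6-week wild type lay below every other array, and the other groups overlapped. The 6-week difference was 1.07 ± 0.23 (2.10-fold) and its overlapping second probe gave 1.08. At 12 weeks the genotypes differed by 0.03 ± 0.23, a value whose sign turned with the slide as a fixed block (-0.063).

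Tuba1b levels were 5.64, 5.87 and 5.65 in the 6-week wild type, 6.47, 6.17 and 6.19 in the 6-week knockout, 5.98, 6.26 and 6.41 in the 12-week wild type, and 5.94, 5.60 and 5.69 in the 12-week knockout. The 6-week knockout and the 12-week wild type were high and overlapped each other; the 6-week wild type and the 12-week knockout were low and overlapped each other. The knockout was 0.56 ± 0.14 higher at 6 weeks (1.48-fold), and at 12 weeks knockout minus wild type was -0.48 ± 0.14. The second probe of Tuba1b gave 0.70 at 6 weeks and -0.21 at 12 weeks.

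Tuba1a levels were 0.79, 1.45 and 1.20 in the 6-week wild type, 1.68, 1.59 and 1.59 in the 6-week knockout, 1.001, 1.15 and 1.48 in the 12-week wild type, and 1.46, 0.73 and 1.24 in the 12-week knockout. The 6-week knockout lay above all arrays of the other 3 groups, which overlapped each other. Its difference from the 6-week wild type was 0.47 ± 0.21, and its second probe gave 0.41.

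Tuba8, a divergent alpha tubulin, did not share this pattern. Its levels were 1.26, 1.002 and 1.56 in the 6-week wild type, 0.41, 0.58 and 0.49 in the 6-week knockout, 0.62, 1.76 and 1.74 in the 12-week wild type, and 0.41, 0.21 and 0.22 in the 12-week knockout. All 6 knockout arrays were lower than all 6 wild type arrays, whatever the age. Knockout minus wild type was -0.79 ± 0.27 at 6 weeks and -1.09 ± 0.27 at 12 weeks, with a difference between the ages of -0.31 ± 0.38. The 12-week wild type spread by 0.65 (SD), because its array on slide 1 stood at 0.62 and those on slide 2 at 1.76 and 1.74. Within slide 2 the 12-week difference was -1.47, and with the slide as a fixed block the 6-week one was -1.91.

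**Figure D2:**
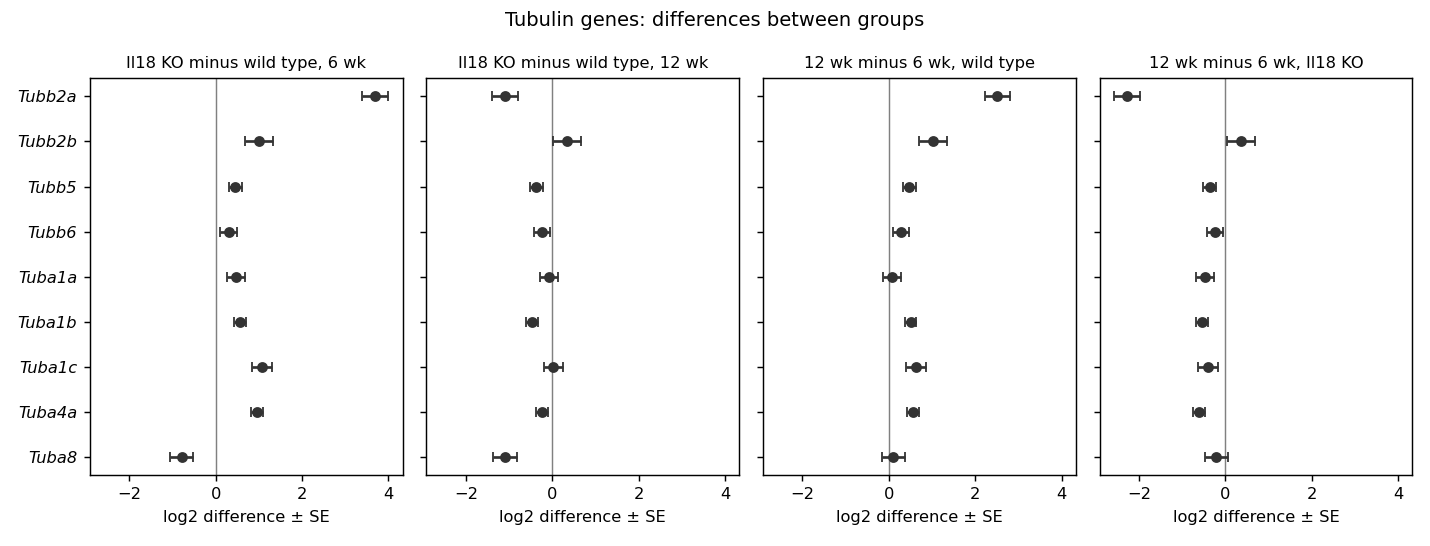
Log2 difference ± SE of each of the 9 genes in 4 comparisons (genotype at 6 and at 12 weeks, age in the wild type and in the knockout; n = 3 arrays a group). At 6 weeks 8 of the 9 points lie above 0 and Tuba8 lies below; Tubb2a has the differences of 3.70, 2.51 and -2.28.

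Counted over the genes, 4 of the 9 passed an adjusted p under 0.05 at 6 weeks, all higher in the knockout (Tubb2a, Tuba1b, Tuba1c and Tuba4a); 11.7% of all genes tested were called higher and 9.36% lower. Without overlap between the groups, 8 were higher, as were 25.3% of all genes, and Tuba8 was lower, as were 22.5%. At 12 weeks Tuba8 alone was called, lower in the knockout, against 2.56% of all genes. Without overlap, 3 genes were lower at 12 weeks (Tubb2a, Tuba1b and Tuba8; 9.87% of all genes). These counts come from the contrasts in which the genes were noticed and support nothing about them.

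Between the ages, Tubb2a, Tuba1b and Tuba4a were called higher at 12 weeks in the wild type (4.62% of all genes) and the same 3 genes were called lower at 12 weeks in the knockout (2.93% of all genes). For the difference between the genotype effects, Tubb2a, Tubb5, Tuba1b and Tuba4a were called, all negative (4.76% of all genes). The comparisons share groups, so the values stand side by side and not as repeats. The group mean was lowest in the 6-week wild type and highest in the 6-week knockout for 5 of the 9 genes and for 14.5% of all genes. The median difference of the 9 genes was 0.56 at 6 weeks and -0.24 at 12 weeks between genotypes, and 0.50 in the wild type and -0.40 in the knockout between ages; the medians of all genes lay between -0.02 and 0.02.

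The calls at 6 weeks changed when the slide was added to the fit as a fixed block. The SE grew in that fit, from 0.14 to 0.25 for Tuba4a and from 0.23 to 0.42 for Tuba1c. A lost call therefore cannot tell a slide difference from a wider error. With the slide as a fixed block 2 members were called, Tubb2a higher and Tuba8 lower; Tuba4a was 0.82 ± 0.25 and Tuba1c 0.79 ± 0.42, neither called. Tuba1b was 0.21 ± 0.22 in place of 0.56 ± 0.14, so for this gene the estimate itself also fell. In the same fit 2.66% of all genes were called, and the fit depends on a single array (12-week wild type, replicate 1) to join the slides. With each array left out in turn, Tubb2a, Tuba1c and Tuba4a kept their 6-week calls, and Tuba1b lost its call without 6-week wild type replicate 1 or 3 or knockout replicate 1. Without 12-week wild type replicate 1, the bridging array, 6 members were called at 6 weeks, Tubb5 and Tuba8 among them. The share of all genes called in that fit is not given here. The 12-week call of Tuba8 was lost without replicate 2 or 3 of the 12-week wild type, without replicate 2 or 3 of the 6-week knockout and without any 1 array of the 12-week knockout. The comparison of ages in the knockout lies wholly within slide 2; there Tubb2a kept its call without any 1 array, and Tuba4a lost it without replicate 1 or 2 of the younger or 2 or 3 of the older knockout. Tuba1b lost it without any 1 of the 6-week arrays of either genotype, without 12-week wild type replicate 2 and without 12-week knockout replicate 2 or 3. For age in the wild type Tubb2a kept its call in the same fits, and Tuba4a and Tuba1b lost theirs with the slide as a fixed or random block and without any 1 of the 6-week wild type arrays. Tuba4a also lost it without 12-week wild type replicate 2 or 12-week knockout replicate 3, and Tuba1b without 12-week wild type replicate 2 or 3, 6-week knockout replicate 2 or 3 or any 1 of the 12-week knockout arrays. For the difference between the genotype effects, Tubb2a and Tuba4a kept their calls, Tuba1b lost its call with the slide as a fixed block, and Tubb5 lost its call with either slide block and without replicate 1 or 3 of either 6-week group or replicate 2 or 3 of either 12-week group.

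The 28 pairwise correlations of the 8 genes other than Tuba8 ran from -0.03 to 0.98 with a median of 0.65. Tubb2b was at -0.03 with Tuba1a, 0.12 with Tuba1b, 0.14 with Tubb6 and 0.19 with Tubb5. Its other values were 0.48 with Tuba4a, 0.51 with Tubb2a and 0.63 with Tuba1c. These points share 4 group means and 2 slides, and the genes were picked with the group differences known, so the values describe the group pattern. The 8 pairs with Tuba8 ran from -0.51 to 0.30 with a median of -0.18. Summed as the mean centred level of the 9 genes, arrays ranged from -0.48 to -0.46 in the 6-week wild type, 0.32 to 0.52 in the 6-week knockout, 0.02 to 0.48 in the 12-week wild type and -0.39 to 0.11 in the 12-week knockout. Tubb2a made up much of this: over the other 8 genes the ranges were -0.29 to -0.28, 0.17 to 0.31, -0.05 to 0.40 and -0.33 to 0.11 in the same order.

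**Figure D3:**
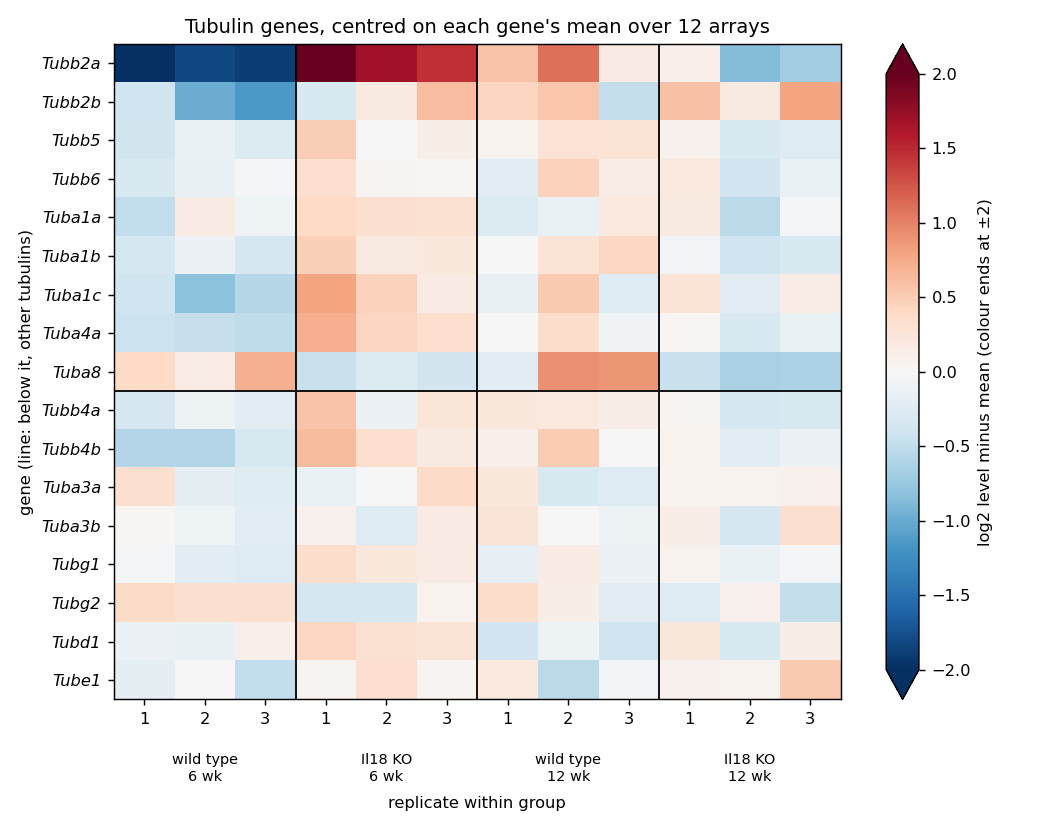
Level of the 9 genes (above the horizontal line) and of the 8 other tubulin genes tested (below it) on each array, centred on the gene's mean over 12 arrays (log2; colours end at ±2). Tubb2a shows the strongest colours; Tuba4a and Tubb4b repeat its order of groups more faintly, and Tuba8 is below its mean in all 6 knockout arrays.

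Of 11 other tubulin genes, 8 were tested; Tubb1 of platelets, Tubb3 of neurons and Tubal3 were not well above background in any whole group. At 6 weeks 2 of the 8 rose in the knockout and none fell. Tubb4b, a widely expressed beta tubulin also found in cilia, rose by 0.88 ± 0.16 (limma, adjusted p = 0.00513), and Tubg1, the gamma tubulin of the nucleating ring, by 0.42 ± 0.11 (limma, adjusted p = 0.0238). With the slide as a fixed block neither passed: Tubb4b was at 0.73 ± 0.29 (limma, adjusted p = 0.231), where mainly its error grew, and Tubg1 at 0.22 ± 0.18 (limma, adjusted p = 0.572). With single arrays left out Tubb4b kept its call each time, and Tubg1 lost it without 6-week wild type replicate 2 or 3 or knockout replicate 1 or 2. Tubb4b levels were 5.22, 5.20 and 5.47 in the 6-week wild type and 6.43, 6.13 and 5.98 in the 6-week knockout, without overlap. At 12 weeks they were 5.90, 6.31 and 5.80 in the wild type and 5.87, 5.58 and 5.67 in the knockout, which overlapped.

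The remaining 6 did not pass at 6 weeks: Tubb4a, the beta tubulin of myelinating glia, was at 0.45 ± 0.16, Tubg2 at -0.55 ± 0.18, Tubd1 at 0.39 ± 0.14, Tube1 at 0.38 ± 0.20, Tuba3a at 0.11 ± 0.19 and Tuba3b at 0.08 ± 0.18. At 12 weeks none of the 8 passed in the limma fit (1 had an unadjusted p under 0.05), with values from -0.37 to 0.35. The difference between the ages was called for Tubb4b (-1.17 ± 0.23; limma, adjusted p = 0.00996) and Tubb4a (-0.83 ± 0.23; limma, adjusted p = 0.0473).

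A probe for Tubb2a-ps2, a pseudogene of Tubb2a, was looked at after its values were seen. Its levels were -0.82, -0.78 and -0.70 in the 6-week wild type, 2.75, 2.05 and 1.02 in the 6-week knockout, 1.12, 1.60 and 0.61 in the 12-week wild type, and 0.61, -0.33 and -0.14 in the 12-week knockout. The order of its group means was that of Tubb2a, with a 6-week difference of 2.71 ± 0.41. With the slide as a fixed block that difference was 2.72 ± 0.78 and was not called. The longest run of identical bases between the pseudogene probe and the Tubb2a probe was 6, and signal of a gene and of its near-identical copies cannot be told apart by hybridisation alone.

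Of the 69 genes tested in 5 lists of genes that act on tubulin, 13 (18.8%) were called at 6 weeks and 5 (7.25%) at 12 weeks, beside 21.1% and 8.2% of all genes, so these shares were near the background. Of 9 tubulin folding cofactors and autoregulation factors, at 6 weeks 2 rose (Tbcb by 0.36 ± 0.11 and Arl2 by 0.37 ± 0.12; limma, adjusted p = 0.0434 and 0.0459) and Tbcel fell by 0.37 (SE 0.11; limma, adjusted p = 0.0390). These 3 lost their calls with the slide as a fixed block and when single arrays were left out. At 12 weeks 1 rose, Tbcc, which acts on the dimer in its last folding step, by 0.38 ± 0.09 (limma, adjusted p = 0.0325; 0.135 within slide 2). Ttc5, the autoregulation factor, was at -0.13 ± 0.12 at 6 weeks and 0.17 ± 0.12 at 12 weeks. None of the 14 subunits of prefoldin and of the chaperonin CCT, which fold nascent tubulin, passed at either age in the limma fit (4 and 2 had an unadjusted p under 0.05), and their medians were 0.06 and 0.10.

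Among 22 tested of 31 microtubule-associated and severing proteins, 4 rose and 2 fell at 6 weeks. Ckap5, a microtubule polymerase, rose by 0.46 ± 0.11 (limma, adjusted p = 0.0160) and Map7, a kinesin-1 cofactor, by 0.38 ± 0.09 (limma, adjusted p = 0.0161). Fign, a severing enzyme, fell by 0.83 (SE 0.16; limma, adjusted p = 0.00601), and Tppp, a polymerisation-promoting protein, by 0.50 (SE 0.12; limma, adjusted p = 0.0197). At 12 weeks 3 rose: Tppp by 0.99 ± 0.12 (limma, adjusted p = 0.00275), Ckap5 by 0.47 ± 0.11 (0.0288 by the same test) and Katnal1 by 0.51 ± 0.12 (0.0289). Within slide 2 Tppp kept its call at 0.98 (limma, adjusted p = 0.0231), and the other two did not. The 6-week calls of Tppp and Map7 were lost without single 6-week arrays (wild type replicate 3 or knockout replicate 2 for both, wild type replicate 2 for Tppp and 1 for Map7), that of Ckap5 without knockout replicate 1, and the 12-week calls of Ckap5 and Katnal1 without 12-week wild type replicate 1 or knockout replicate 1 or 3, that of Ckap5 also without wild type replicate 2.

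Of 16 tested of 22 tubulin modifying enzymes, 2 rose and 1 fell at 6 weeks: Atat1, the acetyltransferase of alpha tubulin, by 0.49 ± 0.09 (limma, adjusted p = 0.00705), Ttll12 by 0.48 ± 0.12 (0.0220) and Vash1, a detyrosinating enzyme, which fell by 0.45 (SE 0.10; 0.0120). None passed at 12 weeks in the limma fit (2 had an unadjusted p under 0.05). Without 6-week wild type replicate 2 or 3 or knockout replicate 1 or 2, Ttll12 lost its call. Of the 8 components of the gamma-tubulin ring complex, Tubgcp4 rose at 6 weeks by 0.47 ± 0.08 (limma, adjusted p = 0.00418) and Tubgcp2 at 12 weeks by 0.35 ± 0.08 (0.0241; 0.0775 within slide 2). With the slide as a fixed block none of the 99 genes in the lists drawn beside the tubulins passed at 6 weeks by limma, 15 had an unadjusted p under 0.05, and 2.66% of all genes passed.

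Of the other cytoskeletal genes, 12 of 13 actins and intermediate filament genes were tested, and at 6 weeks 3 rose and 1 fell. Actb, cytoplasmic beta-actin, rose by 0.77 ± 0.10 (limma, adjusted p = 0.000873; 0.0139 with the slide as a random block and 0.0986 as a fixed block). Krt18 and Krt8, the keratins of hepatocytes, rose by 0.44 ± 0.13 and 0.41 ± 0.13 (limma, adjusted p = 0.0341 and 0.0460), and Lmnb2, a nuclear lamin, fell by 0.63 (SE 0.11; 0.00419). Both keratin calls were lost without any 1 of the 6-week arrays. None passed at 12 weeks in the limma fit (1 had an unadjusted p under 0.05). The list's median was 0.24 at 6 weeks and -0.07 at 12 weeks.

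**Figure D4:**
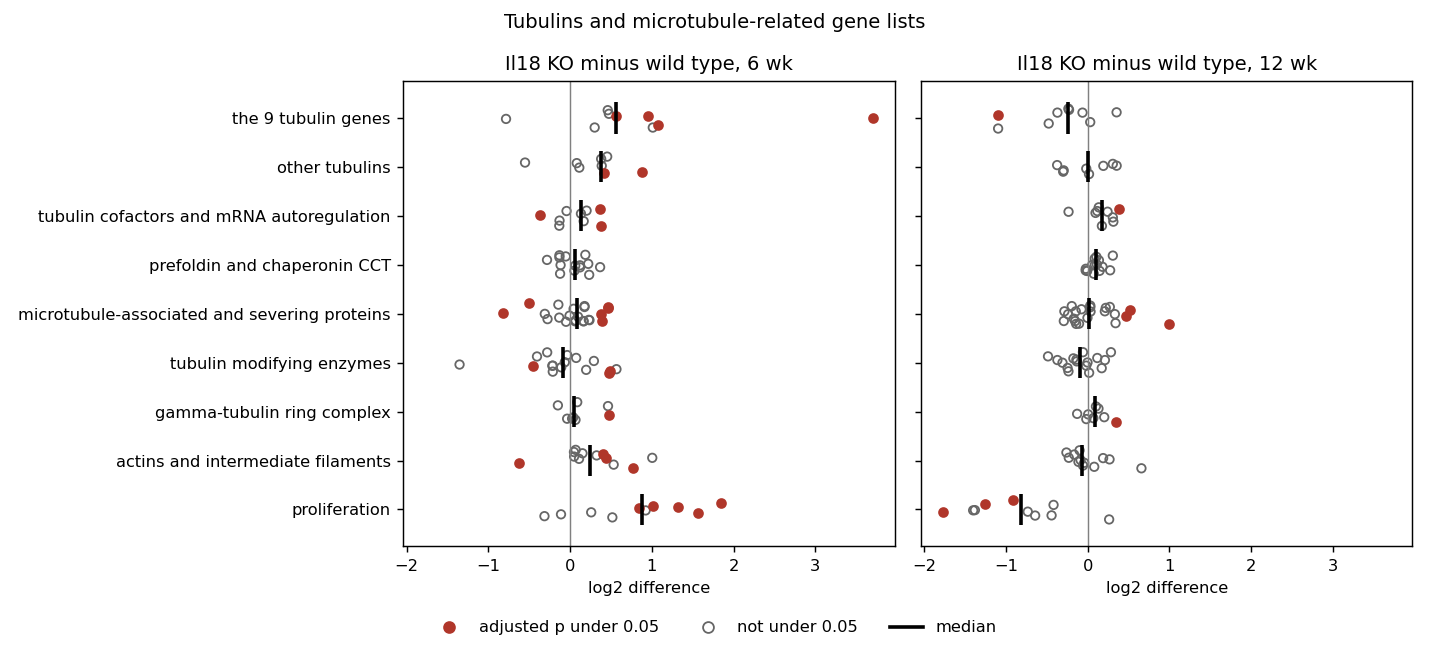
Log2 differences between knockout and wild type at 6 weeks (left) and 12 weeks (right) of the 9 tubulin genes and of the genes in 8 lists; filled points passed an adjusted p under 0.05 and vertical bars are medians. The median of the 9 genes is 0.56 at 6 weeks and -0.24 at 12 weeks; that of the proliferation list goes from 0.88 to -0.82, and the folding, modifying and ring complex lists stay near 0.

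Proliferation genes also differed between the groups. Of 10 tested of 14, 5 rose in the 6-week knockout, where 11.7% of all genes rose; 1 passed with the slide as a random block and 0 as a fixed block, where the list's median was 0.22 in place of 0.88. Among the 5 were Ccna2 by 1.56 ± 0.34 and Mki67 by 1.32 ± 0.34 (limma, adjusted p = 0.0118 and 0.0233), and Aurka by 1.02 ± 0.23 (0.0137). The tested probe of Tpx2, a spindle assembly factor, rose by 1.84 ± 0.31 (0.00358), but where another of its probes was taken the value was -0.32, and without 6-week or 12-week wild type replicate 3 it was -0.61 and -0.32. At 12 weeks 3 fell, where 2.56% of all genes fell: Tpx2 by 1.77 (SE 0.31), Ccnb1 by 1.25 (SE 0.26) and Ccnb2 by 0.91 (SE 0.22) (limma, adjusted p = 0.00975, 0.0186 and 0.0361). With age in the wild type 7 rose, where 4.62% of all genes rose. All 3 of the 6-week wild type arrays and 1 of the 12-week ones were on slide 1, so age and slide are partly mixed there. The mean centred level of the list ran from -0.999 to -0.45 in the 6-week wild type, -0.12 to 0.27 in the 6-week knockout, 0.20 to 1.32 in the 12-week wild type and -0.35 to 0.17 in the 12-week knockout. Its highest values were in the 12-week wild type, as were the highest means of Tubb5 and Tuba8. The highest mean was in the 6-week knockout for 6 of the 9 tubulin genes, Tubb2a among them, and for 28.2% of all genes. For Tuba1b and Tubb6 that mean was only 0.06 and 0.01 above the 12-week wild type, with overlap. At 6 weeks Mki67 lost its call without wild type replicate 1 or 2 or knockout replicate 1 or 2. At 12 weeks Ccnb1 lost its call without knockout replicate 2 or 3 and within slide 2 (limma, adjusted p = 0.0682). Tpx2 lost it without replicate 3 of the 6-week or of the 12-week wild type, and Ccnb2 without any of 7 single arrays. Within slide 2 the list had 4 genes that fell, Ccnb1 not among them. The part of the proliferation list in the tubulin differences was not tested.

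Markers of other cells were set beside the tubulins in the same way. Of the 5 tested neutrophil and monocyte markers 2 rose at 6 weeks, S100a8 by 0.74 ± 0.11 and S100a9 by 0.90 ± 0.09 (limma, adjusted p = 0.00169 and 0.000177), and the list's mean centred level ran from -0.37 to -0.26 in the 6-week wild type, -0.25 to 0.11 in the 6-week knockout, 0.10 to 0.45 in the 12-week wild type and -0.04 to 0.09 in the 12-week knockout. Of 5 tested cholangiocyte markers Sox9 alone rose at 6 weeks, by 1.81 ± 0.28 (limma, adjusted p = 0.00223), while Krt19 and Krt7 were at -0.16 ± 0.26 and -0.21 ± 0.36 and Epcam was not well above background; at 12 weeks Spp1 and Cldn7 fell by 0.52 (SE 0.12) and 0.32 (SE 0.08) (limma, adjusted p = 0.0340 and 0.0384). That list ran from -0.21 to -0.14, -0.21 to 0.30, -0.01 to 0.43 and -0.09 to -0.04 in the same order of groups. None of 4 tested nerve and Schwann cell markers passed at either age by limma (1 at each had an unadjusted p under 0.05), and Tubb3 was not well above background. The 7 hepatocyte markers were all measured, with a median of -0.10 at 6 weeks and -0.06 at 12 weeks. Tat, an enzyme of tyrosine breakdown, and Apoa1 rose at 6 weeks by 0.92 ± 0.20 and 0.30 ± 0.09 (limma, adjusted p = 0.0115 and 0.0372). At 12 weeks Apoa1 fell by 0.41 (SE 0.09) and Cps1, of the urea cycle, rose by 0.53 ± 0.12 (limma, adjusted p = 0.0224 and 0.0302). No hepatocyte or cholangiocyte marker was called at 6 weeks with the slide as a fixed block, while 2 neutrophil and monocyte markers were. Only 1 cholangiocyte marker and no hepatocyte marker was called at 12 weeks within slide 2.

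The 8 markers of Kupffer cells and macrophages shared the signs of most tubulins. Of these 6 were above 0 at 6 weeks and none at 12 weeks between genotypes, and all 8 were above 0 with age in the wild type and none in the knockout. None passed at 6 weeks in the limma fit (0 had an unadjusted p under 0.05), and at 12 weeks Timd4 alone fell, by 0.81 (SE 0.22; limma, adjusted p = 0.049997). Their medians were 0.19 at 6 weeks and -0.29 at 12 weeks, and -0.04 at 6 weeks with the slide as a fixed block. The list's mean centred level ran from -0.20 to 0.04 in the 6-week wild type, -0.06 to 0.07 in the 6-week knockout, 0.16 to 0.48 in the 12-week wild type and -0.62 to 0.32 in the 12-week knockout, so it was highest in the 12-week wild type and the 6-week groups overlapped. Of 4 tested erythroid markers Alas2 and Slc4a1 rose at 6 weeks by 1.46 ± 0.13 and 0.41 ± 0.12 and Klf1 fell by 0.91 (SE 0.23) (limma, adjusted p = 0.000132, 0.0329 and 0.0218). At 12 weeks Klf1 and Slc4a1 rose by 1.26 ± 0.23 and 0.46 ± 0.12 (limma, adjusted p = 0.0116 and 0.0400). The erythroid level ran from -0.20 to -0.01, -0.0003 to 0.09, -0.31 to -0.18 and 0.17 to 0.53 in the order 6-week wild type, 6-week knockout, 12-week wild type and 12-week knockout. Of 6 tested NK and T cell markers 1 fell at 6 weeks and 2 at 12 weeks, and of 5 B and plasma cell markers 1 fell at 12 weeks. These were Cd3g of T cells by 0.66 (SE 0.19) at 6 weeks and 1.77 (SE 0.19) at 12 weeks, and at 12 weeks Il2rb by 0.85 (SE 0.22) and Jchain of plasma cells by 1.49 (SE 0.20) (limma, adjusted p = 0.0328, 0.00148, 0.0401 and 0.00342). The mean centred level of the 6 NK and T cell markers ran from -0.08 to 0.25, -0.29 to -0.19, 0.18 to 0.52 and -0.45 to -0.16 in that order of groups, and that of the 5 B and plasma cell markers from -0.36 to 0.14, -0.49 to -0.24, 0.21 to 0.79 and -0.10 to 0.05. Kdr of endothelium and Lrat of stellate cells fell at 6 weeks by 0.54 (SE 0.14) and 0.50 (SE 0.14) (limma, adjusted p = 0.0269 and 0.0344). Oit3 of sinusoidal endothelium rose at 12 weeks by 0.52 ± 0.12 (limma, adjusted p = 0.0327). At 6 weeks 4 of the 8 endothelial markers were above 0 (median 0.02), as were 3 of the 7 stellate markers (median -0.10). Those numbers were 6 (median 0.07) and 2 (median -0.22) at 12 weeks. None of the markers tested for smooth muscle, mesothelium, adipocytes and exocrine pancreas passed at either age by limma (0 at 6 weeks and 2 at 12 weeks had an unadjusted p under 0.05). Even so, the 2 adipocyte markers tested were 0.91 and 2.84 higher in the 12-week knockout than in the 12-week wild type. Their mean centred level ran from 1.31 to 1.65 in the 12-week knockout and reached at most 0.37 in any other group. No endothelial, stellate or NK and T cell marker was called at 6 weeks with the slide as a fixed block, and 1 erythroid marker was. Called at 12 weeks within slide 2 were 1 NK and T cell and 1 B and plasma cell marker, and no Kupffer cell, erythroid or endothelial one. The part of the cell type markers in the tubulin differences was not tested.

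Of 13887 genes with a gene name other than the 9, those whose levels followed Tubb2a most closely over the 12 arrays were Chka (r = 0.99), Lrfn3 (0.99), Arntl (0.98), Slc16a6 (0.98) and Spsb3 (0.97), and 3.98% of these genes had an r of at least 0.8; among the 9, Tuba4a was at 0.98. Arntl, which encodes the core clock factor BMAL1, had genotype differences of 5.15 at 6 weeks and -1.16 at 12 weeks on the log2 scale and age differences of 3.098 in the wild type and -3.21 in the knockout. For Chka, a choline kinase, these were 2.28, -0.60, 1.40 and -1.48. The genes running most strongly the other way were Nr1h4, the bile acid receptor FXR (r = -0.97), Cd36, a fatty acid transporter (-0.96), Aifm2 (-0.96), Nqo1 (-0.96) and Efhd2 (-0.95). The correlations share 4 group means and the arrays' slides. The hour at which livers were taken is not given in the labels, and its part in the tubulin levels was not tested.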

How the data were processed

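Livers were measured on 12 one-colour arrays, 3 in each of 4 groups. Per the file headers, the authors' scanner software (Agilent Feature Extraction 10.7.3.1, per the submitters' processing notes) wrote a background-subtracted processed intensity, not scaled between arrays. The deposited value table holds the same intensity, within 0.4995%. From the deposited intensity, log2 levels relative to each array's 75th percentile were computed; control and outlier spots were left out. Probes entered the test if the scanner flags put them well above background in every array of at least 1 group (29804 probes, 53.5%), and the brightest probe stood for a gene. RefSeq names (GRCm38.p6) were matched by accession for 26687 probes; 25984 kept the name in the files. The 4 group means were fitted together (R 4.3.3, limma 3.58.1, functions lmFit and eBayes, with 8 residual degrees of freedom), using Benjamini-Hochberg adjustment over all genes tested and a threshold of 0.05. The fit was tested on simulated data that held no slide difference, so that test does not bear on the slide.

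The members, the 22 gene and marker lists and the rule for naming were chosen with earlier results of these data known. The rule named every member and other tubulin, up to 4 called genes of each pathway list with the smallest p per genotype contrast, and the 5 genes most and least correlated with Tubb2a; markers, Ttc5, Cdc20, Mapre3 and Pfdn2 were named outside it, after their values were seen. Alternatives covered background correction, normalization, the filter, the choice of probe, slide and replicate blocks, limma's trend and robust options, and each array left out. The number of arrays limits the precision.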

Additional observations from a re-analysis of the deposited data

Results flagged for a closer look

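The genotype difference itself differed between 6 and 12 weeks, by limma's interaction term, for the following genes, each value being the 12-week log2 difference minus the 6-week one. Among the 9 tubulin genes these were Tubb2a (-4.80), Tuba4a (-1.19), Tuba1b (-1.04) and Tubb5 (-0.83), which are descriptions because the genes were picked with these results known. Among the other tubulins they were Tubb4b (-1.17; limma, adjusted p = 0.00996) and Tubb4a (-0.83; 0.0473). Among cytoskeletal, tubulin folding and microtubule genes they were Actb (-0.87; limma, adjusted p = 0.00456), Lmnb2 (0.57; 0.0427), Tubgcp4 (-0.49; 0.0246), Tppp (1.49; 0.000980), Fign (1.17; 0.00909), Tbcel (0.62; 0.0336), Mapre3 (-0.52; 0.0195), Pfdn2 (0.56; 0.0257) and Atat1 (-0.73; 0.00787). Among proliferation genes they were Tpx2 (-3.61; limma, adjusted p = 0.00120), Cdc20 (-2.30; 0.0406), Ccna2 (-2.21; 0.0173), Ccnb1 (-2.10; 0.00637), Mki67 (-2.06; 0.0236), Aurka (-1.46; 0.0188) and Ccnb2 (-1.43; 0.0188). The slide separates the genotypes at 6 weeks and not at 12 weeks, so slide and this difference between ages cannot be told apart without the bridging array. The Tpx2 value depends on the probe. Over the alternative runs, some of which used another of its probes, its 6-week difference ran from -0.61 to 1.90. Its 12-week difference ran from -1.98 to -0.23.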

How the results depend on the processing

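Counts of the 9 genes past the threshold moved as follows. At 6 weeks 4 became 2 with the slide as a fixed block (median 0.25 in place of 0.56), where 2.66% of all genes were called beside 21.1% without a block. They became 7 with limma's trend and robust options. At 12 weeks 1 became 0 without the filter on dim probes or with the replicate block, 2 with the deposited value table or the slide as a fixed or random block, and 3 with normexp background, quantile normalization, probes above background on all arrays or the trend and robust options. Of all genes 6.42% were called at 12 weeks with the replicate block, beside 8.2% without a block. With the slide as a fixed and as a random block these shares were 5.8% and 7.45%. For age in the wild type 3 became 1 without the filter or with either slide block, for age in the knockout 3 became 1 without the filter, and for the difference between ages 4 became 2 with the slide as a fixed block. For age in the wild type 3.29% (fixed) and 4.89% (random) of all genes were called, beside 9.06% without a block. For the difference between ages the share was 6.93% with the fixed block, beside 10.3%. Leaving out each array in turn gave 3 to 6 calls (median difference 0.47 to 0.64) at 6 weeks, 0 to 2 (-0.41 to -0.10) at 12 weeks, 1 to 4 (0.43 to 0.61) and 1 to 3 (-0.51 to -0.25) for age in the wild type and the knockout, and 3 to 5 (-0.96 to -0.76) for the difference. The cause was not tested. Shares of all genes are not given here for the other settings, so their counts cannot be set against them.

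Signs turned for small differences. With the slide as a fixed block they turned for Tubb6 at 6 weeks (-0.21), Tuba1c at 12 weeks (-0.063, as within slide 2), Tubb6, Tuba1a and Tuba8 for age in the wild type (-0.051, -0.15 and -0.65) and Tuba8 for the difference between ages (0.44). With a random block they turned for Tuba1c at 12 weeks (-0.0063) and for Tuba1a and Tuba8 with age (-0.019 and -0.19). Without single arrays the values ran from -0.12 to 0.27 for Tuba1c and -0.22 to 0.14 for Tuba1a at 12 weeks, and from -0.12 to 0.22 for Tuba1a and -0.095 to 0.47 for Tuba8 with age. The other values of single members kept their sign in each alternative run. The Tpx2 probe at 6 weeks turned to -0.32 without the filter, where a brighter probe takes its place, and ran from -0.61 to 1.88 without single arrays. The settings for list genes were added after seeing the data. Of 642 such values 159 lost their call, and 3 others, of Tpx2 at 6 weeks, changed sign. Among the list genes Tbcb, Tbcel, Arl2, Tbcc and Ccnb2 lost their call without any of 7 or more single arrays.

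Replicate numbers did not pair the arrays: deviations of same-numbered arrays correlated at -0.09 to 0.18, with a median of -0.02 over 18 pairs.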
